A study of Rattus norvegicus with 8 samples.

Results

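The 9 genes described here, Isg15, Ifit2, Ifit3, Mx1, Mx2, Irf7, Irf9, Rsad2 and Usp18, are interferon-stimulated genes, taken by name from 26334 gene names that the arrays carry outside their control spots. They were measured in retinas of female Lister Hooded rats aged 8 weeks, at 2 weeks after surgery. The ONC group had an optic nerve crush on the right side (4 rats, 10 s of pressure by forceps, 3 mm behind the disc), and the CTR group had sham surgery that left the nerve uncrushed (4 rats). RNA of each retina carried a green (Cy3) or red (Cy5) dye, and 2 retinas shared each of 4 Agilent arrays on 1 slide. The study asked how the retinal transcriptome differs once the axons of the retinal ganglion cells (RGCs) have been injured.

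Interferons are secreted when cells sense foreign or displaced nucleic acid. They bind receptors whose kinases phosphorylate STAT proteins, which then assemble with IRF9 into a factor that switches on antiviral genes through a DNA element named ISRE, while STAT dimers act through an element named GAS. In the retina, microglia, Müller glia and vessels are known to respond to interferons, and interferon-induced genes are known to be switched on in nervous tissue after injury as well as infection.

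Each of the 9 genes had 1 probe, except Usp18 with 2, so that 10 probes were read. Each probe was marked by the scanner software as well above background in all 8 channels, and none was saturated. Foreground over local background was lowest for Usp18, at 2.24 in the channel labeled CTR2, and Isg15 stood at 2.80 there. The lowest ratio of Irf7 was 11.6, that of Mx1 19.0 and that of Mx2 498.1. The spots had to lie at 2 times the background or more in all 8 channels and to carry no outlier flag. The only spot of Mx2 carried such a flag on its local background in the channel labeled ONC3 and was left out, which kept 8 of the 9 genes among 16307 genes tested. Mx2 was read with that flag ignored, a choice made after the flag had been seen.

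The labels of the channels have to be read with care. By the labels, Cy5 marked all CTR retinas and Cy3 all ONC retinas, with equal numbers sharing an array, and the dye cannot be told apart from the condition. In the study's methods the layout is another one, with both retinas of an array from one group and either dye used in each group. Markers of RGCs went against the labels. Their summed level, in multiples of the median spot of a channel and over 9 of 12 listed markers that passed the filter, was 3.88, 27.1, 4.88 and 5.64 in the channels labeled CTR1 to CTR4 against 30.6, 30.7, 31.9 and 4.18 in those labeled ONC1 to ONC4. It was high in ONC1, ONC2, ONC3 and CTR2 and low in CTR1, CTR3, CTR4 and ONC4. By probe signal, Sncg, which codes for gamma-synuclein, added most to the sum on average over the channels. The RGC marker Pou4f1 had no spot, and Pou4f3 and Isl2 were under 2 times the background in at least 1 channel. The tissue itself showed its defining transcripts, with 11 of 12 photoreceptor markers and 8 of 8 Müller glia and astrocyte markers above the filter. Each direction below is one between labels, and results are given with all 8 channels and also without CTR2 and ONC4. These 2 channels were picked from measured transcripts, so values without them are a description of the remaining channels.

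The probes and promoters show what was read and which elements the genes share. The Isg15 probe is printed because its signal spanned the widest range among the 9 genes, and it has 60 bases.
Isg15 probe: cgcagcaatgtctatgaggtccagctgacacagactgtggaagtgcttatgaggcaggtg
Promoters on the GRCr8 assembly were read from a table of RefSeq genes for 5 of the 9: Ifit3, Mx1, Irf7, Irf9 and Rsad2. Those of Isg15, Ifit2, Mx2 and Usp18 were not analysed here. An ISRE core, taken as GAAA followed after any 2 bases by another GAAA, was searched on both strands and was found in 3 of the 5 promoters. Below, capitals mark the match, which reads as its reverse complement on the strand of each gene.
Ifit3, chr1:241527257-241527316, plus strand: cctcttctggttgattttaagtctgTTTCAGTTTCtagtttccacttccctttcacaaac
Irf7, chr1:205800058-205800117, minus strand: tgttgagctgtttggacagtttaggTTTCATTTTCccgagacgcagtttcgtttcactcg
Rsad2, chr6:48788233-48788292, minus strand: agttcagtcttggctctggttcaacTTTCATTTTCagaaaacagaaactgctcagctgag
The match lay 44 to 35 bases before the listed start of Ifit3, 69 to 60 before that of Irf7 and 147 to 138 before that of Rsad2. Of all 33469 listed promoters, 3.92% held the ISRE core, and among other interferon-induced antiviral genes 23 of 36 promoters held it. A GAS core written as TTCNNNGAA, which is its own reverse complement, stood in the promoter of Irf9 alone among the 5, 99 to 91 bases before its start. The Mx1 promoter held neither core in this window.
Irf9, chr15:33065712-33065770, plus strand: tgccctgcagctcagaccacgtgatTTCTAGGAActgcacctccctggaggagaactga
The GAS core was held by 8.87% of all listed promoters and by 8 of 36 promoters of other interferon-induced antiviral genes. These matches describe letters in a window and were not tested as binding sites. Ifit2 and Ifit3 are neighbors in the RefSeq gene table with 0 protein-coding genes between them, and Mx1 and Mx2 have 1 between them.

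Levels are given as log2 of the background-subtracted and normalized signal, where 0 is the median spot of the channel, and they compare channels for one gene, not genes with each other. Irf9 and Irf7 carry the interferon signal into the nucleus. Irf9 is the DNA-binding partner of STAT proteins, and its log2 level was -1.80, -2.82, -2.15 and -1.55 in the channels labeled CTR1 to CTR4 against -1.85, -2.55, -2.18 and -1.82 in those labeled ONC1 to ONC4. The lowest channels were CTR2 and ONC2, on the same array, and the groups overlapped. The log2 fold change of Irf9, as ONC minus CTR, was -0.019 ± 0.27 (SE, n = 4 per group), with an adjusted p of 0.979 by limma. This first difference, like those below, is one between labels. The study gives other interferon-induced genes, among them Ifitm3 and Ifi27l2b, as higher after ONC. Its printed list of the most upregulated genes does not hold Irf9 or the other members. The sign of the Irf9 value was not stable, since it was positive with channels scaled to their medians alone, at 0.17, and without CTR4, at 0.16.

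Irf7 is the transcription factor that amplifies interferon production, and its log2 level was -0.036, -1.57, -0.0061 and -0.40 in CTR1 to CTR4 against -0.75, -1.30, -0.83 and -0.15 in ONC1 to ONC4. CTR2 stood lowest, while CTR1, CTR3 and ONC4 were close together at the top, so the groups overlapped. For Irf7, the log2 fold change was -0.25 ± 0.36, with an adjusted p of 0.768. Without CTR2 and ONC4, the remaining Irf7 channels did not overlap and the log2 difference was -0.81 ± 0.18, with an adjusted p of 0.0607.

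Isg15 and Usp18 form a pair of modifier and its removing enzyme. Isg15 is a ubiquitin-like protein that is attached to other proteins after interferon, and its log2 level was -1.46, -3.89, -1.38 and 0.57 in CTR1 to CTR4 against -1.69, -2.88, -2.001 and -1.07 in ONC1 to ONC4. CTR4 was highest and CTR2 lowest, so both extremes carried the CTR label, and the ONC channels lay between them. This span of 4.47 on the log2 scale, or 22.1-fold, was the widest of the 8 genes. Between labels, the log2 fold change was -0.37 ± 0.81, with a 95% interval from -2.20 to 1.46 and an adjusted p of 0.857, and without CTR4 its sign turned, at 0.33. Without CTR2 and ONC4 it was -1.44 ± 0.57, with an adjusted p of 0.186.

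Usp18 removes Isg15 from its targets and also restrains signaling at the interferon receptor. Its log2 level, the mean of 2 probes, was -2.41, -4.07, -2.58 and -2.17 in CTR1 to CTR4 against -2.99, -3.81, -3.15 and -1.82 in ONC1 to ONC4. ONC4 was highest and CTR2 lowest, with ONC2 next to it, and the groups overlapped. For Usp18, the log2 fold change was -0.14 ± 0.49, with an adjusted p of 0.918, and the sign turned without CTR4, at 0.075, and without ONC2, at 0.15. The probes of Usp18 differed on array 4: ONC4 minus CTR4 was -0.49 for the first probe and 1.19 for the second on the log2 scale, while over all arrays the probes gave log2 fold changes of -0.24 and -0.037. Scaling to the median without loess also turned the sign of Usp18, to 0.24.

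The remaining members act directly on viral RNA, proteins or membranes. Ifit2 and Ifit3 belong to a family of RNA-binding proteins that hold back translation of foreign RNA. The log2 level of Ifit2 was -2.95, -3.52, -2.88 and -2.07 in CTR1 to CTR4 against -2.87, -3.21, -3.11 and -2.98 in ONC1 to ONC4. That of Ifit3 was -2.59, -3.62, -2.84 and -2.36 in CTR1 to CTR4 against -2.92, -3.81, -3.00 and -2.85 in ONC1 to ONC4. Both genes were highest in CTR4. Both were low in CTR2 and ONC2, and the groups overlapped. Between labels, the log2 fold change was -0.18 ± 0.26 for Ifit2 and -0.29 ± 0.29 for Ifit3, with adjusted p of 0.765 and 0.650. Scaling to the median without loess turned both signs, to 0.22 for Ifit2 and 0.13 for Ifit3, and without CTR4 the value of Ifit2 was 0.077. Ifit3 was lower in the ONC channel on 4 of 4 arrays, by the differences of -0.34, -0.19, -0.16 and -0.49 on arrays 1 to 4, and its adjusted p with the array as a block was 0.0717.

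Mx1 and Mx2 are dynamin-like GTPases that trap viral components. The log2 level of Mx1 was 0.32, -0.72, 0.29 and 1.62 in CTR1 to CTR4 against -0.62, -0.45, -0.67 and 0.20 in ONC1 to ONC4. CTR4 stood highest and CTR2 lowest, and 3 of the CTR channels lay above all of the ONC channels. Mx1 had a log2 fold change of -0.76 ± 0.43, or 1.70-fold lower in ONC, with a 95% interval from -1.73 to 0.20 and an adjusted p of 0.384. Without CTR2 and ONC4 it was -1.33 ± 0.34, with an adjusted p of 0.0811. Mx2, read with its background flag ignored, had log2 levels of 4.84, 4.38, 4.45 and 5.01 in CTR1 to CTR4 against 4.60, 4.49, 4.24 and 5.04 in ONC1 to ONC4. Its span over the 8 channels was 0.81 on the log2 scale, narrower than that of any of the other 8 genes, and array 4 was highest in both channels. The log2 fold change of Mx2 was -0.079 ± 0.20, with an adjusted p of 0.881.

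Rsad2 codes for viperin, an enzyme that makes a chain-terminating nucleotide against viral polymerases. Its log2 level was -0.74, -2.50, -0.64 and 0.55 in CTR1 to CTR4 against -1.79, -2.51, -2.03 and -1.09 in ONC1 to ONC4. CTR1, CTR3 and CTR4 lay above every ONC channel, and CTR2 lay beside ONC2 at the bottom. The log2 fold change of -1.02 ± 0.57, or 2.03-fold lower in ONC, was the largest of the 9 genes, with a 95% interval from -2.31 to 0.27 and an adjusted p of 0.382. With the array as a block the adjusted p was 0.0623. Without CTR2 and ONC4, the log2 fold change of Rsad2 was -1.83 ± 0.36 with an adjusted p of 0.0494, a description of channels picked from measured transcripts. Over all the alternatives tried, the adjusted p of Rsad2 ran from 0.0494 to 0.722.

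**Figure D1:**
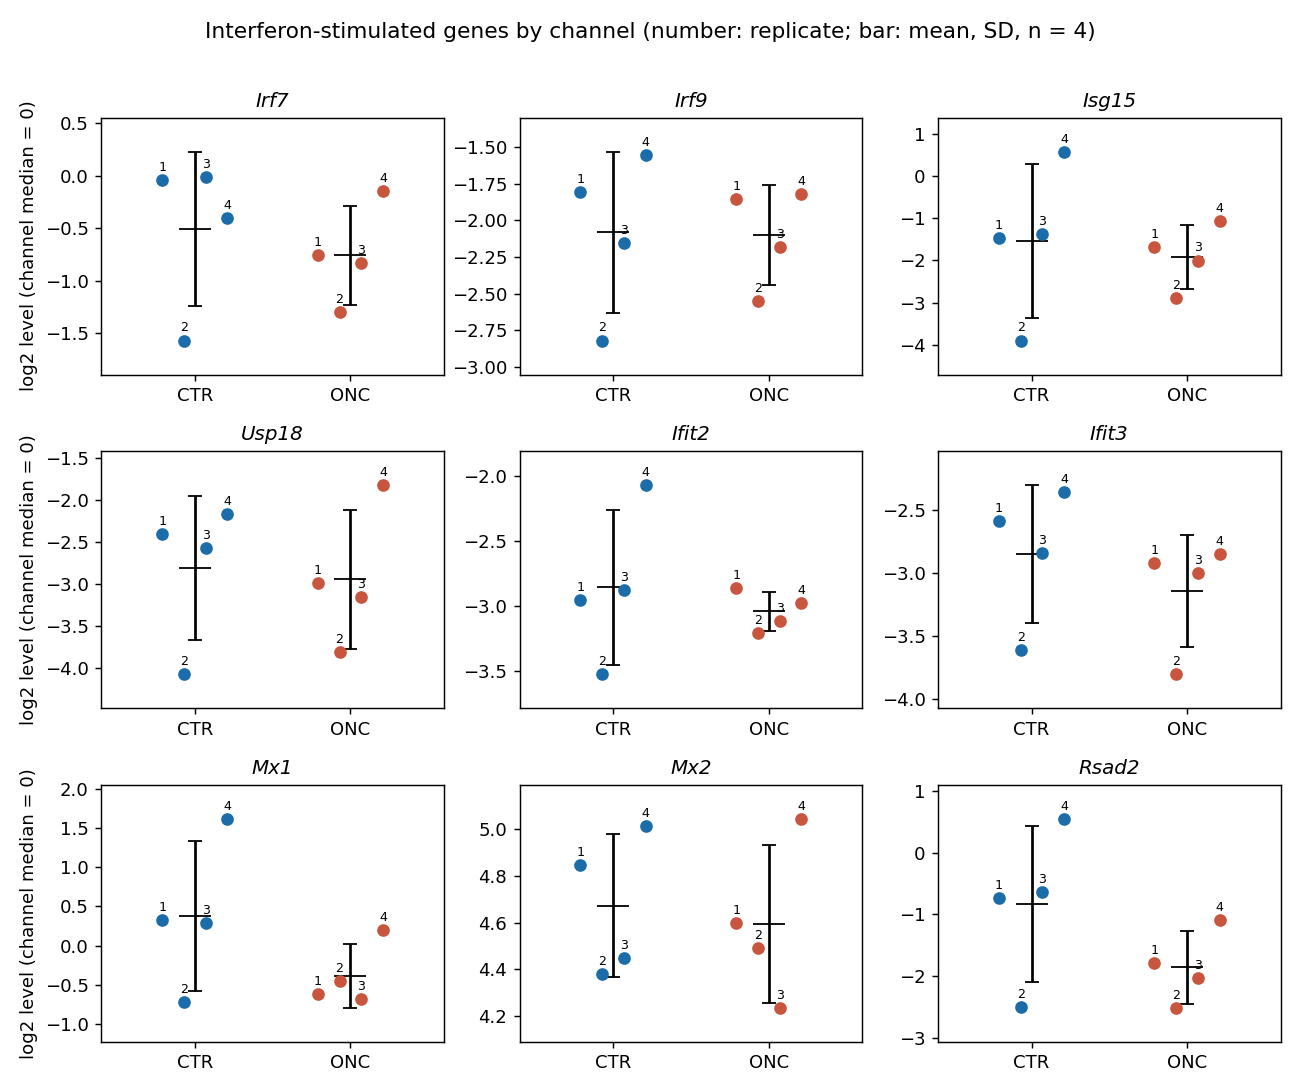
Log2 level of each of the 9 interferon-stimulated genes (vertical axis, median spot of the channel = 0) in the 4 channels labeled CTR and the 4 labeled ONC, with replicate numbers beside the points and bars for mean and SD. CTR2 is the lowest CTR channel in each panel, and the groups overlap in each; Mx2 is drawn with its background flag ignored.

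No member was called. By limma at an adjusted p under 0.05, 0 of 8 interferon-stimulated genes differed between the labeled groups, beside 81 of all 16307 genes (0.497%, 38 higher and 43 lower in ONC). At an unadjusted p under 0.05 the count was also 0 of 8, beside 18.6% of all genes. With the array as a block, limma called 0 of 8, beside 1254 of all genes (7.69%), and 3 of 8 had an unadjusted p under 0.05, beside 31.3% of all genes. The methods' t-test with their fold-change threshold was met by 0 of 8, beside 3.29% of all genes. The CTR and ONC levels overlapped for 8 of 8, while they did not overlap for 12.7% of all genes.

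The direction of the members was shared, but it depended on the scaling and on single channels. All 8 members that passed the filter had a log2 fold change below 0, beside 52.6% of all genes, but 4 of 8 did with channels scaled to their medians alone and 4 of 8 without CTR4. Their median log2 fold change was -0.27, beside -0.013 for all genes, and it was -0.027 without CTR4, -0.58 without CTR2 and -0.072 without ONC2. Among the channels whose dye is the same in the labels and in the methods, CTR2, CTR4, ONC1 and ONC3, the median was -0.078 and 4 of 8 members were below 0. With Mx2 read, 9 of 9 genes were below 0, with a median of -0.26 and 0 called.

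Without CTR2 and ONC4, all 8 members were below 0 with a median log2 fold change of -0.87, beside -0.064 for all genes. The levels of 6 of 8 members did not overlap between the remaining channels (Isg15, Usp18, Irf7, Ifit3, Mx1 and Rsad2), beside 31.7% of all genes. Limma called 1 of 8, Rsad2, beside 2.54% of all genes, and 6 of 8 had an unadjusted p under 0.05, beside 23.8% of all genes. Irf9 at -0.36 ± 0.21 and Ifit2 at -0.43 ± 0.24 had overlapping levels and adjusted p of 0.351 and 0.318 there. Since CTR2 and ONC4 were left out for their measured RGC transcripts, the contrast also differed in RGC markers by construction. The members' mean deviation was also lowest in CTR2 (-1.01) and, among ONC channels, highest in ONC4 (0.38). Leaving both out thus lowered the members' mean difference by construction, and the call and adjusted p describe the remaining channels only.

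Within the arrays, the difference of the labeled channels varied from array to array. On array 4, ONC minus CTR on the log2 scale was -1.65 for Isg15, -1.64 for Rsad2 and -1.41 for Mx1, but 0.25 for Irf7 and 0.35 for Usp18. On array 2 it was 1.01 for Isg15 and between 0.26 and 0.32 for Ifit2, Mx1, Irf7, Irf9 and Usp18, with -0.19 for Ifit3 and -0.0080 for Rsad2. Array 2 thus had 6 of 8 members higher in the ONC channel, whereas arrays 1 and 3 had 1 and 0 of 8. On arrays 1 and 3, Rsad2 differed by -1.05 and -1.39 and Mx1 by -0.94 and -0.97, and the values of Irf9 were near 0, at -0.049 and -0.029.

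**Figure D2:**
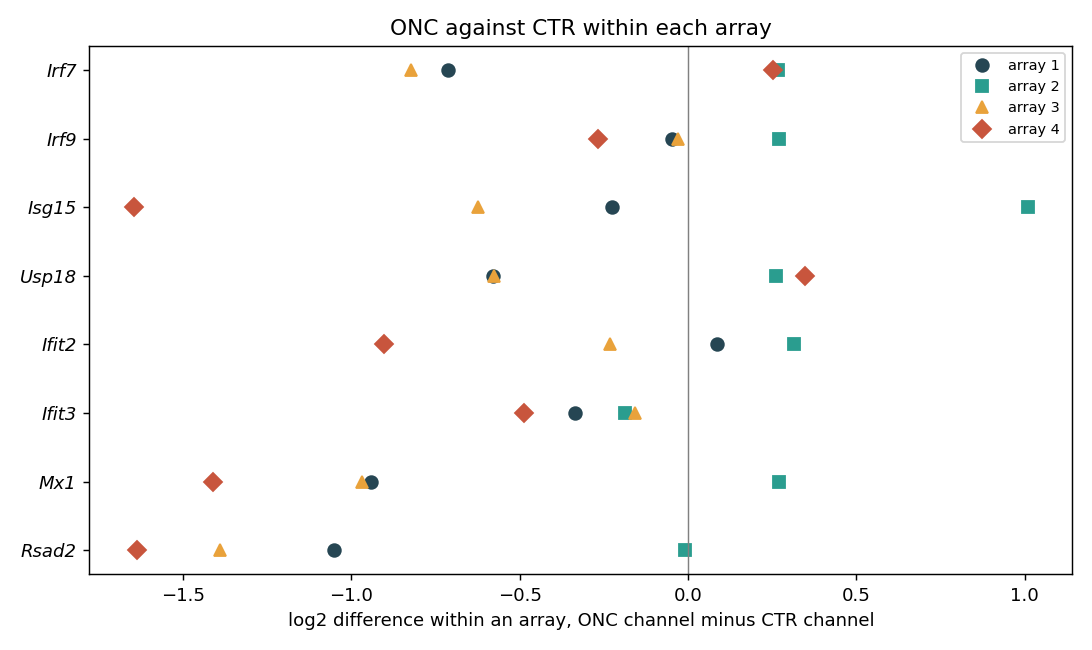
Log2 difference between the ONC and the CTR channel of each array (horizontal axis) for the 8 interferon-stimulated genes that passed the filter, with a symbol for each array. On array 2, Isg15 lies at 1.01 and on array 4 at -1.65, and Rsad2 and Ifit3 are below 0 on all 4 arrays.

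The members moved together across the channels. Over the 28 pairs among the 8 members, Pearson's r across the 8 channels had a median of 0.851, from 0.566 for Ifit2 with Irf7 to 0.953 for Mx1 with Rsad2. These 8 channels share 4 arrays and a common normalization, so r is a description and carries no p. With each gene taken as its deviation from its own mean, the mean deviation of the 8 members on the log2 scale was 0.37, -1.01, 0.30 and 1.10 in CTR1 to CTR4 against -0.11, -0.74, -0.30 and 0.38 in ONC1 to ONC4. CTR4 had 8 of 8 members above their own mean, and CTR1, CTR3 and ONC4 had 7 of 8 each. CTR2, ONC2 and ONC3 had 0 of 8, and ONC1 had 4 of 8. The 4 channels with a negative mean were the 4 with high RGC markers, and the part of RGC content in this was not tested.

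The members also varied more between channels than most genes did. Their SD over the 8 channels had a median of 0.69 on the log2 scale, beside 0.20 for all genes, and the median span from lowest to highest channel was 1.90, beside 0.57. Isg15 had a larger SD than 99.8% of all genes, Rsad2 than 99.6%, Mx1 than 99.1% and Usp18 than 99.04%. Ifit2, the least variable of the 8, had a larger SD than 91.9%. Genes were not matched for signal here, and Usp18, Ifit2 and Ifit3 had lowest ratios to background of 2.24, 3.48 and 3.36. Such spread was not particular to the members, since the SD over the 8 channels was 0.76 for Oasl2 and 0.45 for Lgals3bp, described below.

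The genes whose pattern lay closest to the mean of the members were sought among 16299 other genes. Lgals3bp, a secreted galectin-binding glycoprotein, had r = 0.995 over the 8 channels, and Oasl2, an oligoadenylate synthetase-like protein, had 0.990. Both are on the list of other interferon-induced antiviral genes. Grhl2, an epithelial transcription factor, followed with 0.989, then a transcript described as matrilin 2 with 0.988 and Arrb1, a beta-arrestin, with 0.986. The log2 level of Lgals3bp was 1.48, 0.68, 1.58 and 2.08 in CTR1 to CTR4 against 1.22, 0.86, 1.10 and 1.55 in ONC1 to ONC4, again highest in CTR4 and lowest in CTR2. The median r of all 16299 genes to the members was 0.280, and 1551 of them had r over 0.8.

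The rest of the pathway was read from 9 lists of 123 genes. Spots were found for 110, and 76 passed the filter. Of these 76, limma called 0, with 11 at an unadjusted p under 0.05, beside 18.6% of all genes, and 0 by the methods' t-test with its fold-change threshold. A block for the array brought 6 calls, all lower in ONC, a share near the 7.69% of all genes. Scaling to the median without loess called 2 other genes, both higher in ONC, beside 19.6% of all genes, with the RNA-editing enzyme Adar at 0.89 ± 0.19. By direction, 59 of 76 were lower and 17 higher in ONC with loess, with a median log2 fold change of -0.19, beside 52.6% of all genes lower and a median of -0.013. Without CTR2 and ONC4, limma called 5 of 76, beside 2.54% of all genes, all lower in ONC: Ifi27l2b at -1.94, Oas1k at -1.46, Ifi44 at -0.99, RT1-A2 at -0.77 and Irf5 at -0.74. These calls, too, only describe the channels left after a choice by measured transcripts.

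Transcripts of the interferons themselves were mostly below the filter. Of 12 listed interferon genes, 7 had spots, and 1 passed the filter. Of the 6 that did not, Ifnl3 was well above background in 6 of 8 channels, Ifng in 1, and Ifnb1, Ifna1, Ifna2 and Ifnk in 0. Ifna4, which passed, had a log2 fold change of -0.17 ± 0.11, with an adjusted p of 0.468, and its sign turned when channels were only scaled to their median, at 0.18.

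Interferon receptors were measured better. Of 6 listed, 5 passed, with 3 lower and 2 higher in ONC. Ifnar1, a chain of the receptor for type I interferons, had log2 levels of -1.30, -1.46, -1.08 and -1.66 in CTR1 to CTR4 against -1.63, -2.19, -1.60 and -1.89 in ONC1 to ONC4, lower in ONC on 4 of 4 arrays. Its log2 fold change was -0.45 ± 0.16, with an adjusted p of 0.189, and with the array as a block it was called, at an adjusted p of 0.0468. Ifngr2, a chain of the interferon gamma receptor, differed by -0.20 ± 0.22, with an adjusted p of 0.683. The receptors followed the members little, with a median r of 0.142 over the 8 channels.

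The receptor kinases and STATs had 5 of 6 genes above the filter, 4 lower and 1 higher in ONC, and none was called. The kinase Jak1 went against the direction of the members at 0.15 ± 0.088, higher in ONC on 4 of 4 arrays, with an adjusted p of 0.417.

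Upstream of interferon, 7 of 14 nucleic acid sensors and adaptors passed, 5 lower and 2 higher in ONC, and 0 were called. Ddx58, which codes for the RNA sensor RIG-I, differed by -0.30 ± 0.21 and the adaptor Myd88 by -0.28 ± 0.21, with adjusted p of 0.490 and 0.536, and Ddx58 turned to 0.22 with median scaling alone. Among the kinases and IRFs upstream of interferon, 6 of 8 passed, with 5 lower and 1 higher. Irf5, a factor of macrophage inflammation, was -1.96, -2.32, -1.67 and -1.77 in CTR1 to CTR4 against -2.40, -2.80, -2.42 and -2.19 in ONC1 to ONC4 on the log2 scale. CTR2 alone reached into the ONC range. The log2 fold change of Irf5 was -0.53 ± 0.17 with an adjusted p of 0.151, and with the array as a block it was called, at an adjusted p of 0.0318. Irf1, an early interferon-induced factor, differed by -0.32 ± 0.26, with an adjusted p of 0.561.

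Brakes on the pathway passed the filter in 5 of 6 cases, 3 lower and 2 higher in ONC, with 0 called. Socs3, which blocks receptor kinases, differed by -0.24 ± 0.20, with an adjusted p of 0.556, and by 0.21 with median scaling alone. The phosphatase Ptpn6 differed by -0.50 ± 0.17, with groups that did not overlap and an adjusted p of 0.178.

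The list of other interferon-induced antiviral genes was the largest, with 31 of 46 genes above the filter, 25 lower and 6 higher in ONC and a median log2 fold change of -0.29. Limma called 0, with 6 at an unadjusted p under 0.05, and 2 with the array as a block. Of these 2, Tor3a, an ATPase induced by interferon, had -2.98, -2.91, -2.71 and -2.55 in CTR1 to CTR4 against -3.30, -3.24, -3.22 and -3.13 in ONC1 to ONC4, so the groups did not overlap. Its log2 fold change was -0.44 ± 0.11, with an adjusted p of 0.0883 and of 0.0344 with the block, but 0.0090 with median scaling alone. The galectin Lgals9 differed by -0.39 ± 0.22, with an adjusted p of 0.383 and of 0.0371 with the block. The largest difference was that of Ifi27l2b, a gene induced by interferon alpha, whose log2 level was 0.62, -0.98, 1.08 and 2.05 in CTR1 to CTR4 against -0.57, -0.82, -0.69 and 0.82 in ONC1 to ONC4. Its log2 fold change was -1.01 ± 0.61, with an adjusted p of 0.417. This sign is opposite to that in the study, which gives Ifi27l2b as higher after ONC. Without CTR2 and ONC4 the adjusted p of Ifi27l2b was 0.0384, a description of the remaining channels. Oas1i, an oligoadenylate synthetase that activates RNA decay, differed by -0.79 ± 0.44, with an adjusted p of 0.385. The median r of this list to the members was 0.877.

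Genes tied to interferon gamma were split between GTPases, chemokines and antigen processing. Of 13 GTPases and chemokines, 6 passed, 5 lower and 1 higher in ONC, with 0 called. The chemokine Ccl2, which attracts monocytes, had log2 levels of -3.33, -4.37, -1.11 and -2.18 in CTR1 to CTR4 against -3.75, -3.79, -3.58 and -2.90 in ONC1 to ONC4. CTR3 stood highest and CTR2 lowest. Its log2 fold change was -0.75 ± 0.60, with an adjusted p of 0.556. Irgm, an immunity-related GTPase, differed by -0.32 ± 0.29, with an adjusted p of 0.608, and by 0.14 with median scaling alone.

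Antigen processing genes passed in 10 of 12 cases, 8 lower and 2 higher in ONC. Limma called 0, and 2 of 10 with the array as a block, beside 7.69% of all genes. Psmb8, a subunit of the immunoproteasome that trims peptides for display, had log2 levels of -1.71, -1.59, -0.38 and 0.21 in CTR1 to CTR4 against -2.41, -2.11, -1.60 and -1.54 in ONC1 to ONC4. It was highest in CTR4 and CTR3 and lowest in ONC1, and the groups overlapped through CTR1 and CTR2. The log2 fold change of Psmb8 was -1.05 ± 0.42, with an adjusted p of 0.233 and of 0.0398 with the block. Ciita, the master regulator of MHC class II genes, differed by -0.36 ± 0.19, with an adjusted p of 0.349 and of 0.0405 with the block. RT1-A2, an MHC class I gene, differed by -0.50 ± 0.20, with an adjusted p of 0.218.

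**Figure D3:**
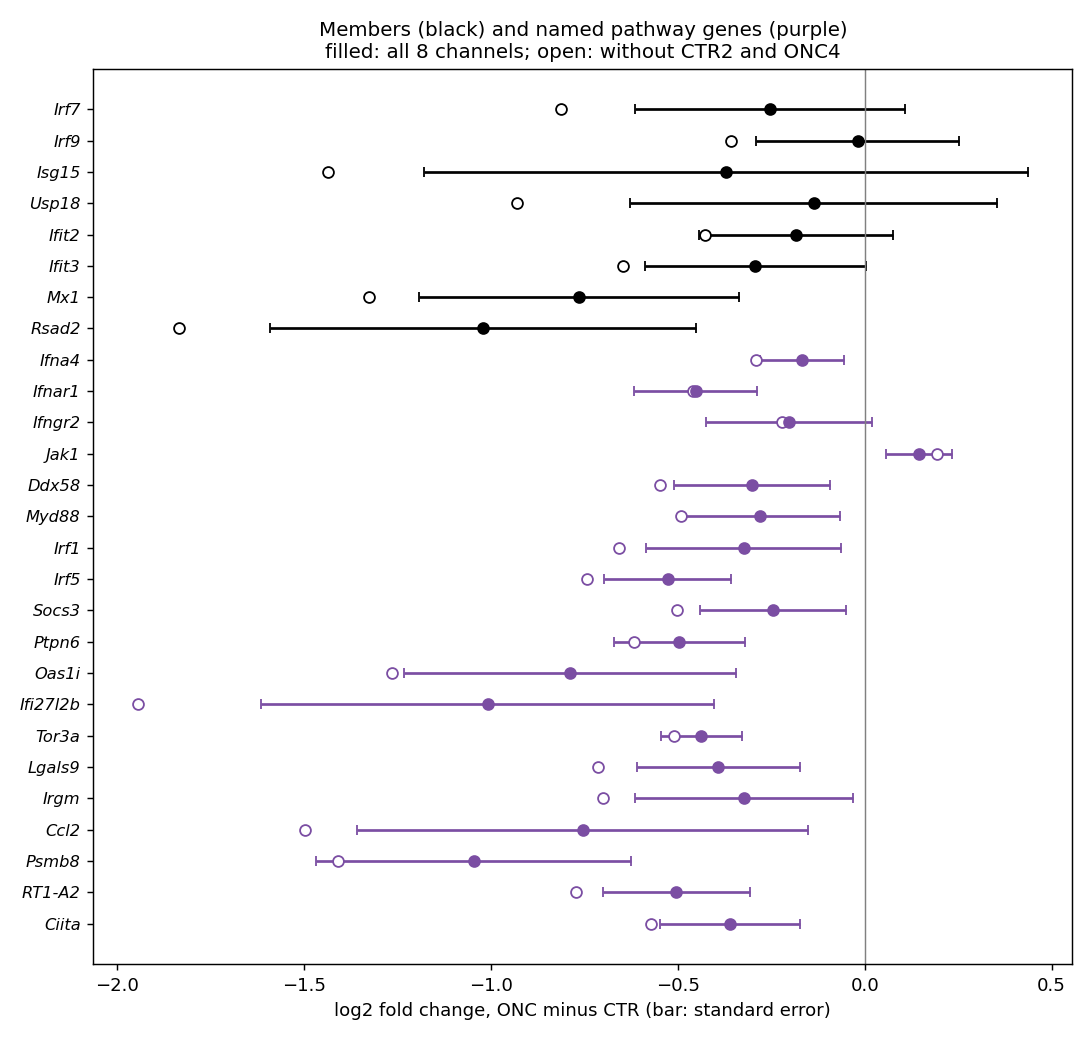
Log2 fold change of ONC minus CTR (horizontal axis, bars for the standard error) for 8 interferon-stimulated genes in black and 19 named pathway genes in purple, with open circles for the value without CTR2 and ONC4. Rsad2 lies at -1.02 with all 8 channels and at -1.83 without these 2, and Jak1 is above 0; with median scaling alone Ifit2, Ifit3, Irf9, Usp18, Ifna4, Ddx58, Socs3, Tor3a and Irgm turn to values above 0.

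Markers of cells that make or answer interferon are set beside these results. Fewer cells of a type and less RNA per cell cannot be told apart in whole retina. All 14 microglia and macrophage markers passed, and 13 of 14 were lower in ONC, beside 52.6% of all genes. Their summed level, in multiples of the median spot, was 23.02, 20.7, 31.8 and 32.0 in CTR1 to CTR4 against 18.6, 23.6, 20.2 and 24.0 in ONC1 to ONC4. It was highest in CTR3 and CTR4, the channels that were also high for antigen processing genes. None of these markers was called by limma, beside 0.497% of all genes, and 5 of 14 had an unadjusted p under 0.05, beside 18.6% of all genes. Their part in the result was not tested.

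MHC class II markers passed in 6 of 7 cases, with RT1-Ba too dim and Cd74 adding most to their mean summed signal. Of those that passed, 6 of 6 were lower in ONC, beside 52.6% of all genes. Limma called 0 of 6, and 1 of 6 with the array as a block, beside 7.69% of all genes. They are themselves induced by interferon gamma. Their summed level was 3.37, 1.18, 5.43 and 3.29 in CTR1 to CTR4 against 1.67, 1.77, 1.73 and 3.44 in ONC1 to ONC4. Like the members' mean, it was lowest in CTR2 and above the other ONC channels in ONC4, but its highest channel was CTR3. Its part in the result was not tested either.

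Markers of leukocytes from the blood were mostly below the filter. Of 11 T cell and lymphocyte markers 3 passed, with Nkg7 adding most to their mean summed signal. Their summed levels were 1.10, 0.65, 0.75 and 0.75 in CTR1 to CTR4 against 0.78, 0.77, 0.70 and 0.90 in ONC1 to ONC4. Cd3e, Cd8a, Cd2, Cd5, Ms4a1 and Cd79b, which define T and B cells, were well above background in 0 of 8 channels. Of 9 neutrophil and monocyte markers, Lyz2 alone passed, and its level was 3.02, 3.18, 5.08 and 7.32 in CTR1 to CTR4 against 2.54, 4.61, 2.71 and 3.57 in ONC1 to ONC4. It was highest in CTR4, as the members' mean was, but did not share its low value in CTR2. Among the 8 that did not pass, Camp was well above background in 7 of 8 channels, S100a9 in 6, S100a8 in 3 and Ly6c in 2, and Mpo, Elane, Ngp and Ccr2 in 0.

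Other cells of the eye are given by their sums. The summed level of Müller glia and astrocyte markers, led by Dkk3, lay between 202.2 in ONC2 and 280.9 in CTR1, with 6 of 8 lower in ONC. Photoreceptor markers lay between 359.7 in ONC2 and 562.0 in CTR1, with 8 of 11 lower. Of all genes, 52.6% were lower in ONC. Limma called none of either list, but with the array as a block 2 of 8 and 3 of 11, all lower in ONC, beside 7.69% of all genes. Endothelium and pericyte markers, of which 7 of 8 passed with Kdr leading, lay between 68.3 in CTR2 and 109.1 in ONC4. Kdr had a mean level of 85.2, beside mean sums of 85.2 in CTR and 92.3 in ONC, so this sum mostly reads Kdr. The mean log2 deviation of these 7 markers, which weighs each gene alike, was lowest in CTR2 (-0.31) and ONC2 (-0.13) and highest in CTR4 (0.15) and ONC4 (0.13), as that of the members was. The pigment epithelium list, which shares Rlbp1 with the Müller glia list and was led by Ttr, passed in 4 of 8 cases and lay between 27.8 in ONC2 and 73.0 in CTR4. Ttr had a mean level of 46.4, beside mean sums of 51.5 in CTR and 57.1 in ONC, so this sum mostly reads Ttr. Blood markers, 3 of 6 with Hba1 leading, lay between 5.51 in CTR2 and 11.7 in ONC3. Lens markers, 8 of 8 with Crygs leading, were highest in CTR2, at 181.7, where the interferon-stimulated genes were lowest, and otherwise lay between 52.8 and 105.0. Whether vessels or admixed lens, blood or pigment epithelium have a part in the result was not tested.

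**Figure D4:**
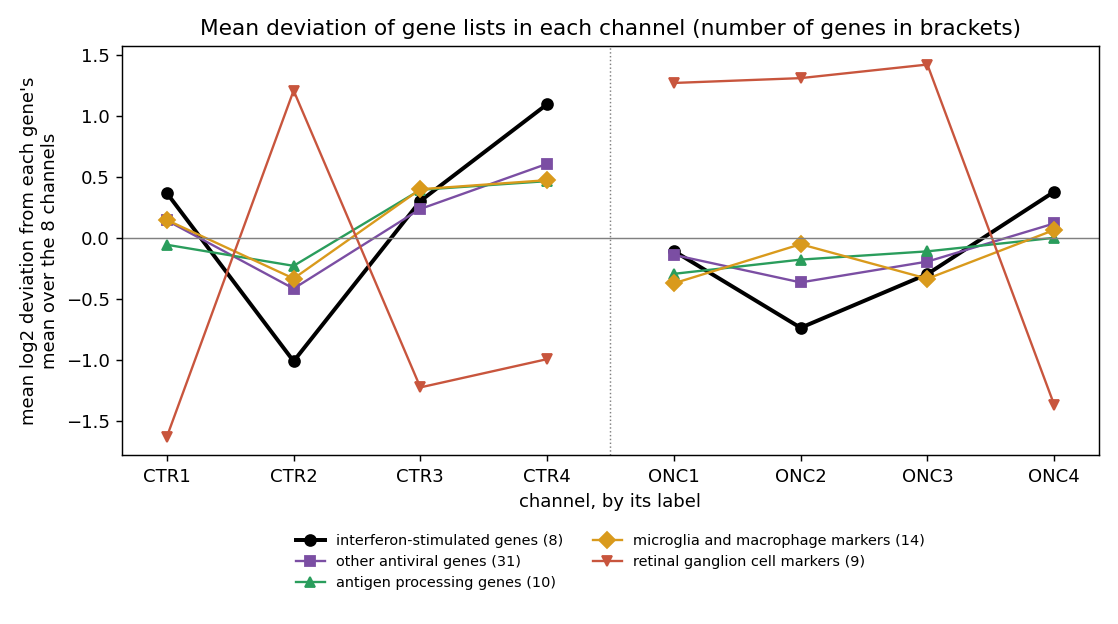
Mean log2 deviation of each gene list from each gene's own mean over the 8 channels (vertical axis) in every labeled channel. The 8 interferon-stimulated genes run from -1.01 in CTR2 to 1.10 in CTR4, and RGC markers are above 0 in CTR2, ONC1, ONC2 and ONC3, where the interferon-stimulated genes are below 0.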

How the data were processed

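RNA of 8 labeled retinas was read on 4 two-color arrays. The deposited values are intensity readings of the scanner software for every spot: mean foreground, median local background and a processed signal. The file headers name Feature Extraction 12.0.3.1, and the submitters' processing notes name 11.1.19.1. All arrays were on 1 slide, and no further batch is given.

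Of 44254 spots per array, 1377 were controls. Spots with an outlier flag, or with foreground under 2 times background in any channel, were left out, which kept 27371 spots, 18599 probes and 16307 genes. Background was subtracted, loess was applied within arrays, and channel medians were set to 0. Spots and then probes were averaged on the log2 scale. Groups were compared by limma 3.58.1 in R 4.3.3 (two-sided, no block), and a gene was called where its Benjamini-Hochberg adjusted p over the 16307 genes was under 0.05. The limma fit, without and with the block, was tested on simulated gene levels with independent noise. That simulation did not cover the spot filter, the normalization or the sharing of arrays and dyes. Tables and figures were made with Python 3.11.15, numpy 2.4.6, pandas 2.3.3 and matplotlib 3.10.9. The number of arrays limits precision.

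Same-numbered CTR and ONC retinas share an array by the labels, and their deviations from the group means correlated at 0.149, 0.549, 0.401 and 0.487 for pairs 1 to 4. For pair 1 another number correlated more, at 0.171, while for the other pairs the highest was 0.082. A fit with the array as a block is given where it changes a call or count. The members and gene lists were chosen with earlier results of these data known, and the lists were written from general knowledge. Of the listed names, 205 matched by name, 2 by synonym and 3 by accession, and 16 were not matched. Named are all 9 members, in each pathway list the 2 genes with the largest absolute log2 fold change and any gene called with or without the block, and the 5 genes with the highest r to the members' mean. Each marker list is given by its sum and the gene with the highest mean probe signal. Genes named outside this rule (among them Adar, Ifi44 and Oas1k) were chosen after their values were seen. Some genes that fall under the rule are not reported here. Alternatives covered background correction, filter, normalization, the block, left-out channels, single probes and the methods' t-test on linear values.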

Additional observations from a re-analysis of the deposited data

Results flagged for a closer look

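Within each labeled group of 4 channels, a single channel stood far from the other 3 in 9 of 90 groups of values examined, where chance alone gives about 1 in 20. Ifit3 was -3.81 in ONC2 on the log2 scale, while the other ONC channels were between -3.00 and -2.85. Ifngr2 was -0.075 in ONC3, below the other ONC channels at 0.67 to 0.78. Ifi27l2b was 0.82 in ONC4, above the other ONC channels at -0.82 to -0.57. The summed level of RGC markers was 27.1 in CTR2, while CTR1, CTR3 and CTR4 lay at 3.88 to 5.64. It was 4.18 in ONC4, while ONC1, ONC2 and ONC3 lay at 30.6 to 31.9. The summed level of MHC class II markers was 3.44 in ONC4, while ONC1, ONC2 and ONC3 lay at 1.67 to 1.77. Photoreceptor markers summed to 359.7 in ONC2, against 461.7 to 482.3 in the others. Endothelium and pericyte markers, a sum made mostly of Kdr, gave 109.1 in ONC4, against 85.4 to 89.0 in the others. Pigment epithelium markers, a sum made mostly of Ttr, gave 27.8 in ONC2, against 64.3 to 68.7 in the others.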

How the results depend on the processing

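The interferon-stimulated genes called numbered 0 under each alternative tried except without CTR2 and ONC4, where 1 was called (Rsad2). Those 2 channels were picked from measured transcripts, so that call is a description. The direction of Mx1 and Rsad2 was lower in ONC under each alternative, with log2 fold changes from -1.33 to -0.35 and from -1.83 to -0.56. Dim spots limit precision, since Usp18, Ifit2 and Ifit3 lay within a few multiples of the background, and 4 channels a label cannot separate condition from dye. The cause of the shifts below was not tested.

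The count of all genes called, 81, was 0 with normexp and no filter on dim spots (2338 at an unadjusted p under 0.05), 123 with spots well above background, 408 with Aquantile, 21 with the scanner's processed signals, and 3194 with scaling to the median alone, of which 71.0% were higher in ONC against 46.9% of the 81. It was 415 without CTR2 and ONC4, 0 with CTR2, CTR4, ONC1 and ONC3 only (1961 unadjusted), 536 by the methods' t-test with its fold threshold and 1 after Benjamini-Hochberg adjustment of that test. With the array as a replicate block, 1254 genes and 6 pathway genes were called, and pairing changed no other call. Leaving out a channel in turn gave 0 to 38 genes, with 38 without ONC2 and 0 without any of the others (2085 to 3252 unadjusted), and 0 to 0 for members and pathway genes.

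Pathway genes called were 2 with scaling to the median alone and 5 without CTR2 and ONC4. The median log2 fold change of the members moved to -0.87 without these 2 channels, and with a channel left out it ran from -0.58 to -0.027. Scaling to the median alone gave positive values for Ifit2 (0.22), Ifit3 (0.13), Irf9 (0.17) and Usp18 (0.24), and CTR2, CTR4, ONC1 and ONC3 only for Ifit3 (0.027), Irf7 (0.19), Irf9 (0.17) and Usp18 (0.053). With 1 channel, or CTR2 and ONC4, left out, log2 fold changes ran from -1.44 to 0.33 for Isg15, -0.43 to 0.077 for Ifit2, -0.65 to -0.072 for Ifit3, -1.33 to -0.35 for Mx1, -0.81 to -0.073 for Irf7, -0.36 to 0.16 for Irf9, -1.83 to -0.56 for Rsad2 and -0.93 to 0.15 for Usp18. Isg15 and Ifit2 were above 0 without CTR4. Irf9 was above 0 without CTR1 (0.074), CTR4 (0.16), ONC2 (0.13) or ONC3 (0.0081), and Usp18 without CTR4 (0.075) or ONC2 (0.15). Keeping spots with a flag on the local background only, chosen after seeing the data, changed no call among the members.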
